A study of Mus musculus with 22 samples.

Results

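Small nucleolar RNAs (snoRNAs) and their relatives of the Cajal body (scaRNAs) take up 119 of the 23361 gene rows of this expression matrix of mouse hippocampal CA1. The 119 rows were chosen by symbol alone, as those whose symbol starts with Snora or Snord and a digit, or with Scarna. They comprise 74 Snord rows (C/D box), 36 Snora rows (H/ACA box) and 9 Scarna rows. No expression value entered the choice.

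The study asked how calorie restriction (CR) alters age-dependent gene expression in the CA1 sector, a field of pyramidal neurons on which spatial memory depends. All 22 mice were female, from a cross of Swiss Webster with DBA/C57BL6 animals, and each gave 1 library from a microdissected CA1, so that replicates are separate animals. AL mice ate a normal diet without limit and CR mice a restricted diet with fewer carbohydrates, and mice were examined at 5 months (5 AL, 5 CR) or 15 months of age (6 AL, 6 CR). Libraries were made from polyadenylated RNA with a kit that does not keep strand, and the values are the authors' FPKM, which scale the fragments of a gene by the length of its transcript and by the depth of the library.

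C/D box snoRNAs guide the 2′-O-methylation of ribosomal and spliceosomal RNA by fibrillarin, and H/ACA box snoRNAs guide the change of uridine to pseudouridine by dyskerin. Most mammalian snoRNAs are cut out of the introns of host genes, many of which encode ribosomal proteins or are noncoding RNAs of the Gas5 and Snhg kind. Mature snoRNAs are short and carry no poly(A) tail, so a library of polyadenylated RNA is not designed to capture them.

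The 4 snoRNAs of the noncoding host gene Snhg12 are printed first, because their rows differ widely in both annotated length and level. They are different RNAs, whose abundance may differ too, and the part of length in their levels was not tested. The sequences are those of GENCODE release M21, read 5′ to 3′ on the plus strand of chromosome 4 of GRCm38, and capitals mark the bases that lie within the RefSeq gene of the same name.
Snora16a: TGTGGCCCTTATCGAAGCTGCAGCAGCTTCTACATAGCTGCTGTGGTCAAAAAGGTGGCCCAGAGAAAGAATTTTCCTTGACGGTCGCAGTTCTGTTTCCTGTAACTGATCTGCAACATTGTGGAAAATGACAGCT
Snora44: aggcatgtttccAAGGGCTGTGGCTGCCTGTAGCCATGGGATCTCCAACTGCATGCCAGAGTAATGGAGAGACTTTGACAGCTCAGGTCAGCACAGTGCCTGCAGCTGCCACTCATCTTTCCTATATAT
Snora61: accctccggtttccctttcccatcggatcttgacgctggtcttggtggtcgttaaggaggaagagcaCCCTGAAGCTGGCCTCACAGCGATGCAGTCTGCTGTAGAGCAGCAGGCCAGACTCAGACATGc
Snord99: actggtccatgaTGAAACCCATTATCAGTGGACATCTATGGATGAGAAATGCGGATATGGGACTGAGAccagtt
Snora16a lies at chr4:132309465-132309600, Snora44 at chr4:132309941-132310069, Snora61 at chr4:132310240-132310369 and Snord99 at chr4:132310691-132310764, and each overlaps an exon of at least 1 Snhg12 transcript. RefSeq gives them 136, 117, 62 and 56 bases. Their mean FPKM over the 22 libraries rose in the same order of shortening, from 83.5 for Snora16a to 254 for Snora44, 8997 for Snora61 and 18267 for Snord99, while the Snhg12 row itself had a mean of 33.5.

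The next sequences belong to the C/D box members on which the comparisons of age and diet turn, with the C box letters TGATGA (within the first 25 bases) and the D box letters CTGA (within the last 25 bases) in capitals where a member has them.
Snord91a: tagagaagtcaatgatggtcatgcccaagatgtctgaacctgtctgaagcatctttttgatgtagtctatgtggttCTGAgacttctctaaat
Snord104: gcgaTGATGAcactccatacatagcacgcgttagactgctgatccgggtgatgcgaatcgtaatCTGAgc
Snord96a: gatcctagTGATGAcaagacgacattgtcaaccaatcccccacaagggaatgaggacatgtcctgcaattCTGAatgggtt
Snord8: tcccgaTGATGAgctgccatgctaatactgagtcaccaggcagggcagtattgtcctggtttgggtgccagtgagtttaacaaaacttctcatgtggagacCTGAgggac
Snord71: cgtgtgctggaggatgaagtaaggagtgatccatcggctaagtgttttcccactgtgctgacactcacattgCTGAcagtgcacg
Snord91a is at chr11:74905424-74905516 in an intron of Tsr1 (plus strand), Snord104 at chr11:106500993-106501062 (plus strand, with no host gene annotated) and Snord96a at chr11:48802032-48802112 (plus strand), overlapping an exon of a Rack1 transcript. Snord8 is at chr14:52209785-52209894 in an intron of Chd8 (minus strand) and Snord71 at chr8:109839295-109839379 in an intron of Ap1g1 (plus strand). Over all 73 C/D members with a sequence, TGATGA was found near the start of 46, CTGA near the end of 72 and both in 45. None of the 36 H/ACA sequences held TGATGA in that window or both boxes, and 5 held CTGA near the end.

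The H/ACA members named below are shown for the same reason, with the last ACA within the final 8 bases in capitals.
Snora65: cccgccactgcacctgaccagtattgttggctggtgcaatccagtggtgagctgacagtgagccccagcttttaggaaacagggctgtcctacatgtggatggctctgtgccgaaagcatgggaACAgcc
Snora47: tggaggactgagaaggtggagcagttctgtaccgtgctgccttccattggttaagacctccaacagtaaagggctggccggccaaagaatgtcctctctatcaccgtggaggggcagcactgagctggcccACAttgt
Snora69: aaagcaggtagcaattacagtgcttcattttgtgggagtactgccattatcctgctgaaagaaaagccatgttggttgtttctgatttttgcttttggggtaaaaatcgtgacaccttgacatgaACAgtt
Snora65 is at chr2:32963291-32963420 (plus strand), overlapping an exon of an Rpl12 transcript. Snora47 is at chr13:95330600-95330737 in an intron of Zbed3 (plus strand), and Snora69 at chrX:37082912-37083042 in an intron of Rpl39 (minus strand). ACA stood within the last 8 bases of 34 of 36 H/ACA members, and of 6 of 73 C/D members; Snora44 and Snora81 were the exceptions among the former. Only the sense strand was searched.

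The files used here give FPKM and no read counts, but most of the FPKM values themselves are stepped. Within a library, rows of the same RefSeq length held whole multiples of 1 common value, which is taken here as the FPKM of 1 fragment. Snord37 and Snord70, both of 53 bases, were for example both at 73605 FPKM in the library of AL mouse 2 at 5 months. In 18 of the 22 libraries, the values of at least 3 rows of any 1 length were whole multiples within 0.02 in 447 of 493 cases (90.7%), against 212 of 461 (46.0%) when rows were matched by their GENCODE length. The other 4 libraries, which carry replicate number 0 in each of the groups, stood apart, since 0 of 118 such cases were whole. Their values could not be read in fragments, and calls and medians are also given without them.

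In those 18 libraries the value of 1 fragment depended steeply on length. It ranged from 6459 to 32839 FPKM at 55 bases, from 1593 to 8619 at 60, from 479 to 2630 at 68 and from 66.9 to 395 at 90 bases. Read this way, the 66 members of 54 to 99 bases (59 C/D, 4 H/ACA and 3 scaRNA rows) had 1188 values, of which 543 were 0. The 645 others had a median of 3 fragments and a highest value of 21, with 177 (27.4%) at a single fragment and 383 (59.7%) at 1 to 3. Of the 618 values under 12 fragments, 95.1% lay within 0.05 of a whole number. The steps were set from values of these same rows, so this share is in part fixed by the method and is no check of it. From olfactory receptor rows, whose values also step, the depth of the 18 libraries was estimated at 27600000 to 68300000 fragments. Snord91a, with the highest mean of all members, rested on 6 to 14 fragments in each of these libraries, and a value of 0 at 60 bases allows up to 3 fragments, which is 4779 to 25857 FPKM depending on the library. Such limits cover counting error only.

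Detection differed between the box classes, which also differ in annotated length. Of the 119 rows, 39 were above 0 in all 22 libraries, 55 were above 0 in some, and 25 were listed at 0 throughout. Among H/ACA rows, 23 of 36 (63.9%) were above 0 in every library and 4 were at 0 in all. Among C/D rows, 14 of 74 (18.9%) were above 0 in every library and 19 were at 0 in all. Of the 9 scaRNA rows, 2 were above 0 throughout (Scarna6 and Scarna13) and 2 were at 0 throughout (Scarna2 and Scarna9). Zeros made up 49.9% of the values of C/D rows, 16.9% of those of H/ACA rows and 54.0% of those of scaRNA rows. The median RefSeq length was 68 bases in C/D and 119.5 in H/ACA rows, and all 7 C/D rows of at most 50 bases were at 0 throughout. At 61 to 70 bases, 3 of 20 C/D and 1 of 2 H/ACA rows were above 0 in every library, and at 91 to 110 bases 2 of 6 and 2 of 4. The part of length in detection was not tested.

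**Figure D1:**
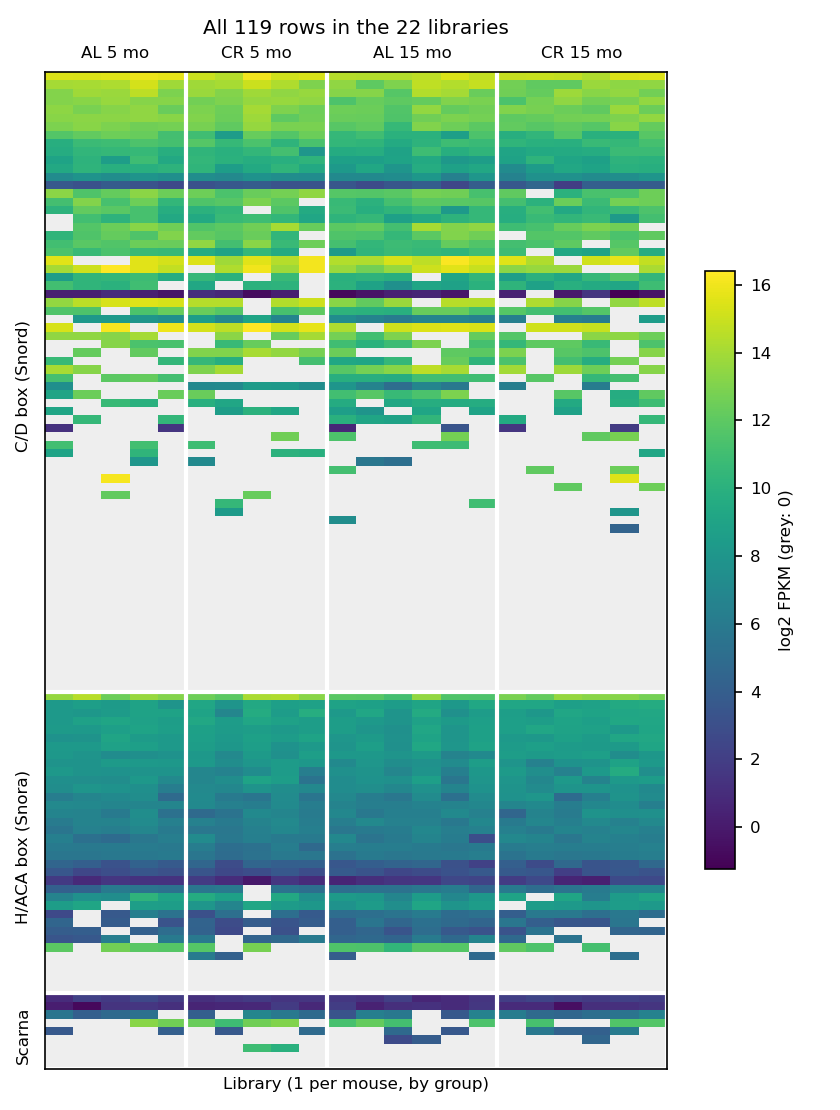
log2 FPKM of each of the 119 rows (vertical) in each of the 22 libraries (horizontal, grouped by diet and age in months), with grey for an FPKM of 0. Rows are ordered within each class by the number of libraries above 0, and the grey area is larger for the 74 C/D rows than for the 36 H/ACA rows.

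The number of rows above 0 in a library ranged from 62 to 82. AL mice at 5 months had 69.4 ± 3.29 rows above 0 (SD, n = 5), CR mice at 5 months 69.2 ± 5.76 (n = 5), AL mice at 15 months 76.0 ± 3.63 (n = 6) and CR mice at 15 months 69.2 ± 3.06 (n = 6). The ranges of all 4 groups overlapped, at 65 to 73, 62 to 74, 72 to 82 and 64 to 73 rows. In the same libraries 18281 to 19175 of all genes were above 0. The libraries of AL mice at 15 months numbered 1 and 2, with the lowest value of 1 fragment at 68 bases (548 and 479 FPKM), had 75 and 78 rows above 0, and the 3 with the highest, CR mice 2 and 4 and AL mouse 2 at 5 months with 2630, 2278 and 2433 FPKM, had 64, 62 and 67. The library of CR mouse 1 at 15 months, with 1091 FPKM, also had 64. The parts of depth and of the value of 1 fragment in detection were not tested.

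Rows at 0 throughout included snoRNAs of abundant hosts. Snord14c and Snord14d, which share the host Hspa8 (mean 684 FPKM), Snord68 in Rpl13 (384 FPKM), Snord43 in Rpl3 (345 FPKM) and Snord42a in Rpl23a (408 FPKM) were listed at 0 in all 22 libraries. Snord68, Snord43 and Snord42a have 48, 48 and 45 bases in RefSeq, and every row of at most 50 bases was at 0. Snord14c and Snord14d have 87 bases and overlap an exon of an Hspa8 transcript. Snord118, the U8 RNA needed to mature the large subunit ribosomal RNA, was at 0 too, although it is a long C/D member at 137 bases. So were Snora35, which lies in an intron of the serotonin receptor gene Htr2c (mean 13.3 FPKM), and the rows Snord116, Snord116l1 and Snord116l2 of the imprinted Snord116 cluster, which is transcribed in neurons. Snord116l1 and Snord116l2 each have 69 other annotated small RNA genes of at least 95% identity, and Snord116 itself matched no gene of either annotation, so those zeros cannot be assigned to a single locus. The same holds for Snord14c and Snord14d, which are near-identical to each other, and for Snord118, which has 1 near-identical small RNA gene (Gm24208).

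Level followed annotated length. Members differed in RefSeq length from 28 to 275 bases, with a median of 68 in C/D, 119.5 in H/ACA and 118 in scaRNA rows. All 8 rows of at most 50 bases (the longest of 48) were at 0 in every library, and the shortest rows with any value above 0, Snord37 and Snord70, had 53 bases. Over the 94 rows above 0 in at least 1 library, the rank correlation of length with mean FPKM was -0.824, and within C/D (n = 55) and H/ACA (n = 32) it was -0.684 and -0.657. These points share libraries, and FPKM itself is divided by length, so they are a description only. With the GENCODE length in place of the RefSeq length, the correlation over the 94 rows was -0.723.

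**Figure D2:**
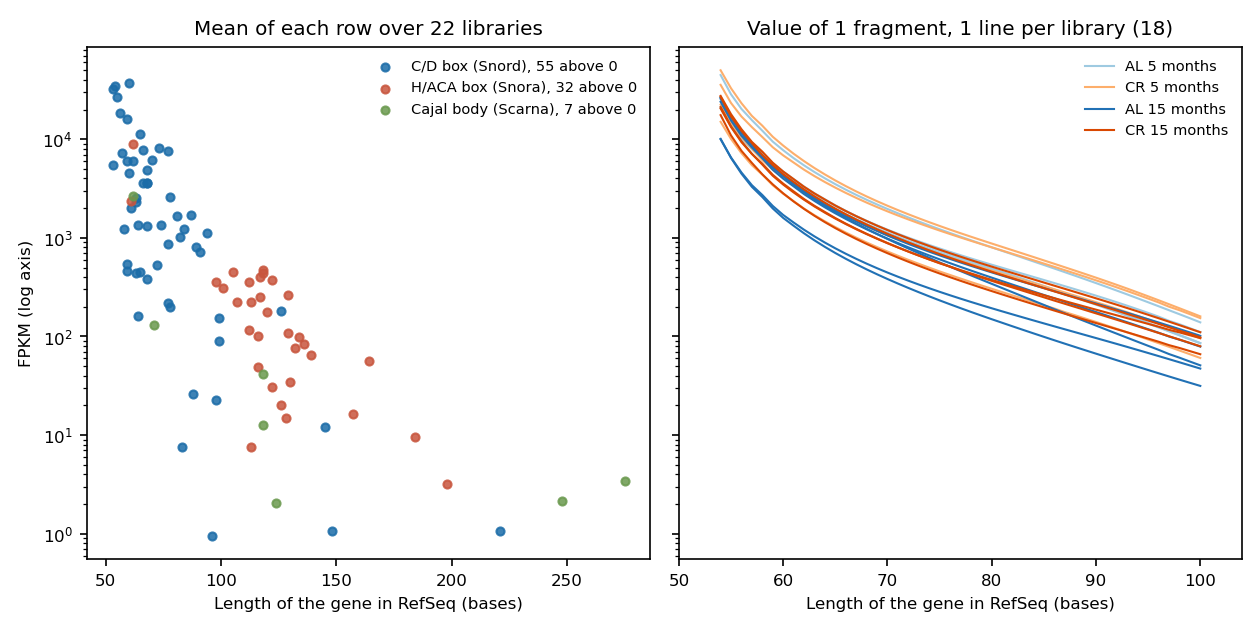
Left, mean FPKM over the 22 libraries (log axis) against RefSeq length in bases for the 94 rows above 0 in any library, coloured by class. Right, the FPKM of 1 fragment at each length from 54 to 100 bases on the same axis, 1 line for each of 18 libraries coloured by diet and age, with the lines of AL mice at 15 months below those of AL mice at 5 months at 68 bases.

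Median levels fell from bin to bin of length. Rows of 51 to 60 bases had a median of their mean FPKM of 7287 (13 rows), those of 61 to 70 bases 2596 (20 rows), and those of 71 to 90 bases 946 (16 rows). The median was 267 at 91 to 110 bases (10 rows), 112 at 111 to 130 bases (22 rows) and 12.1 at 131 bases and above (13 rows). The lowest values above 0 fell likewise, from a median of 4358 FPKM in the shortest of these bins to 4.08 FPKM in the longest. A row of 51 to 60 bases was therefore either at 0 or at 2106 FPKM or more, with nothing between.

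Snord70 shows that step most plainly, with 47234 and 73605 FPKM in 2 libraries and 0 in the other 20. Snord19, of 54 bases, was above 0 in 19 libraries and never between 0 and 15027 FPKM. Snord17, of 221 bases, had values above 0 in 19 libraries, the lowest of them 0.424 FPKM. The FPKM of such short genes is noisy, because a single fragment more or less moves it by a whole step.

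RefSeq and GENCODE differed on where most members end. Of the 118 members that matched both, 94 were shorter in RefSeq, 11 longer and 13 equal. Where RefSeq left bases out, the median was 12 for C/D (58 rows) and 17 for H/ACA members (28 rows). Snora61 lacks 67 bases at its 5′ end and 1 at its 3′ end, which puts its annotated length among the C/D members. The annotation the authors used is not given in the sources used here, and the steps above follow the RefSeq lengths more often than those of GENCODE.

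SnoRNA rows carried much of the summed FPKM of each library. They made up 22.3% to 42.1% of it, against 119 of 23361 rows by number. Their share was 36.6 ± 4.70% (SD, n = 5) for AL and 34.2 ± 3.49% (n = 5) for CR animals at 5 months, then 31.2 ± 6.77% (n = 6) for AL and 28.4 ± 2.50% (n = 6) for CR animals at 15 months. C/D rows alone held 19.8% to 41.1%, H/ACA rows 0.909% to 3.0% and scaRNA rows at most 1.03%. The 5 rows of highest mean, Snord91a, Snord19, Snord37, Snord42b and Snord99, held 8.10% to 25.3%. Without them the group means were 18.1%, 16.3%, 15.3% and 15.9% in the same order. No test was made of this sum.

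Snord91a, a C/D snoRNA in an intron of Tsr1 (a ribosome biogenesis factor), had the highest mean of all members, 36926 FPKM. It is the only row of the 5 that was above 0 in every library. In AL mice at 5 months its FPKM was 42323, 45418, 46420, 54119 and 63731, and in CR mice of that age 22402, 32831, 36255, 41160 and 68951. AL mice at 15 months had from 20646 through a median of 23604 to 42235 FPKM, and CR mice at 15 months from 19795 through 30066 to 47065. The AL libraries of the 2 ages did not overlap in FPKM. In fragments they did, with 6, 9, 13 and 14 in AL mice at 5 months and 6, 7, 10, 12 and 13 at 15 months.

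The other 4 rows of highest mean lost their value in single libraries. Snord19, in Gnl3, was at 0 in 2 AL libraries at 5 months and 1 CR library at 15 months, and between 15027 and 78775 FPKM in the rest. Snord37, in an intron of Eef2, was at 0 in 2 AL libraries at 5 months, 1 AL library at 15 months and 3 CR libraries at 15 months, and otherwise between 18844 and 86098. Snord42b was at 0 in 3 libraries and Snord99 in 4, and their highest values were 85542 and 47463 FPKM. In fragments Snord19 never exceeded 4, Snord42b 3 and Snord99 4. In the fit of log2(FPKM + 0.1), these rows had standard errors of 3.32 to 4.92 on the log2 scale for their differences between groups.

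The H/ACA rows of highest mean covered a wide range. Snora34, in an intron of Kansl2, ranged from 241 to 786 FPKM over all libraries, Snora33 in Rps12 from 116 to 860, and Snora65 in Rpl12 from 242 to 630. Snora61 and Snora20, whose annotated lengths are 62 and 61 bases, stood apart at means of 8997 and 2366 FPKM. Snora20, in an intron of Tcp1, was at 0 in 8 libraries, Snora61 in none. Among scaRNA rows, Scarna17 was highest (mean 2663 FPKM, above 0 in 13 libraries), followed by Scarna10 (above 0 in 2) and Scarna3a (41.7 FPKM, above 0 in 19).

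Spread between mice of a group was wide even where no zeros occurred. The within-group coefficient of variation of FPKM, averaged over the 4 groups, had a median of 33.4% for the 39 members above 0 in all libraries. It ranged from 17.7% for Snora81 to 56.9% for Snora61. For the 16172 other genes above 0 in all libraries the median was 14.0%, and for the 29 hosts of these members 13.6%, from 4.19% for Kansl2 to 19.1% for Rps2.

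The question of age was taken up first, with AL mice at 15 months set against AL mice at 5 months. Differences are of group means of log2(FPKM + 0.1), fitted by limma over the 16978 genes whose mean reached 0.1 FPKM, and a gene was called at a Benjamini-Hochberg adjusted p under 0.05 over all of these. Of the members, 94 passed that filter, the same 94 that were above 0 in any library. Only Snora61 was called, 1 of 94 members, where 20.6% of all genes tested were called. At an unadjusted p under 0.05, 10 members stood out (2 higher, 8 lower at 15 months), or 10.6% against 35.2% of all genes. Without the 4 libraries numbered 0, Snora61 was not called and 2 other members were, Scarna13 at a log2 difference of -0.79 (SE 0.22, limma adjusted p = 0.0255) and Snord8 at 7.53 (SE 2.01, limma adjusted p = 0.020), the latter against 4 AL libraries at 0. The median standard error was 1.60 on the log2 scale for the members and 0.134 for all genes.

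Snora61 was lower at 15 months in AL mice on the FPKM scale. Its FPKM was 5433, 8957, 12659, 12896 and 23170 in AL mice at 5 months, and from 2222 through a median of 3268 to 11866 in AL mice at 15 months. 5 of the 6 older libraries were below every younger one, and the sixth, at 11866, lay among them. The log2 difference was -1.58 (SE 0.53, limma adjusted p = 0.0405, exact two-sided permutation p = 0.0152). In fragments the row had 1, 3, 4 and 7 in the 4 readable AL libraries at 5 months and 1, 1, 2, 3 and 4 in the 5 at 15 months, so the groups overlapped. Per 1000000 fragments of the library these are 0.0820 ± 0.0468 (SD, n = 4) and 0.0457 ± 0.0348 (n = 5), a difference that did not exceed the spread (exact permutation p = 0.222, where FPKM in the same libraries gave 0.0476). Its host Snhg12 went from 29.2 ± 3.34 (SD, n = 5) to 31.8 ± 2.82 FPKM (n = 6), a log2 difference of 0.12 (SE 0.13, limma adjusted p = 0.530). The other Snhg12 members differed by 0.01 (SE 0.24) for Snora16a, -0.39 (SE 0.31) for Snora44 and -4.06 (SE 4.02) for Snord99.

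The call of Snora61 was lost under 7 of the 11 other settings of the fit planned for it, at limma adjusted p from 0.0579 to 0.384, without any 1 of 9 single AL libraries, at 0.0609 to 0.112, and without the 4 libraries numbered 0, at 0.112. In bulk tissue, fewer cells of a type and less RNA per cell cannot be told apart. Markers of regions beyond CA1 moved with the same contrast. The score of the neocortex and subiculum list minus that of the CA1 list ran from -3.55 to -2.03 in AL mice at 5 months and from -1.30 to 0.58 at 15 months, on the log2 scale. The summed FPKM of the 6 neocortex and subiculum markers was 56.2 to 76.5 and 67.4 to 120 in those groups, with 3 of the 6 called higher, and that of the 5 CA1 markers 210 to 467 and 172 to 265, with 3 of the 5 called lower. No marker of either list was at 0 in any library. Of the 5 choroid plexus markers 4 were called lower with age, at sums of 4.08 to 31.8 and 0.59 to 6.23 FPKM, and of the 5 dentate gyrus markers 2, at 20.3 to 58.2 and 4.22 to 38.6. In the oligodendrocyte and microglia lists 1 of 4 was called lower each, in the astrocyte list 1 of 4 higher, in the CA3 list 1 of 4 in each direction, and in the endothelium and thalamus lists (3 each) none. The part of these lists in the result was not tested. With the score as a covariate, no member and no host was called, and Snora61 differed by -1.67 (limma adjusted p = 0.384).

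C/D members above 0 in every library mostly had lower values at 15 months. Of 14 such rows, 13 had a log2 difference below 0, with a median of -0.71 (-0.80 without the libraries numbered 0), whereas 12 of 23 H/ACA rows were below 0, with a median of -0.01. The median was 0.00 over all 94 members and -0.0018 over all genes. Being above 0 in every library is itself a choice on values, which leaves out rows that fell to 0, so these counts describe the 37 rows and no others. Divided instead by length, the 21 C/D rows of 71 to 100 bases had a median of -0.30 (11 below 0, 8 above), and the 30 of at most 70 bases a median of 0.05 (14 below, 15 above). The 25 H/ACA rows of 101 to 140 bases had a median of 0.01.

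Snord91a, Snord104 and Snord96a were the only members whose AL libraries of 5 and 15 months did not overlap, 3 of 94, where 14.0% of all genes tested did not overlap. They were picked out after their values were seen. Snord104 had 8896, 9210, 9337, 9838 and 13179 FPKM in AL mice at 5 months and from 2869 through 4899 to 8388 at 15 months. Snord96a, in Rack1 (row Gnb2l1), the gene of a scaffold protein bound to the small ribosomal subunit, had 9641, 9965, 10055, 10280 and 11338 FPKM at 5 months and from 2907 through 5722 to 7833 at 15 months. All older AL libraries were lower than all younger ones for these members on the FPKM scale.

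In fragments the same groups overlapped. Snord104 had 9, 10, 11 and 11 fragments in AL mice at 5 months and 6, 10, 12, 15 and 15 at 15 months, and Snord96a 10, 16, 16 and 17 against 11, 13, 15, 17 and 21. Per 1000000 fragments, the older AL mice had 0.783 times the level of the younger ones for Snord91a (exact permutation p = 0.206), 0.929 for Snord104 (p = 0.619) and 0.897 for Snord96a (p = 0.413), whereas FPKM in these 9 libraries gave an exact p of 0.0159 for each. The FPKM of 1 fragment at 68 bases was 1385 to 2433 in AL mice at 5 months and 479 to 1310 at 15 months, without overlap. Together with the estimated depth, this is an effective length (the length by which a fragment is divided) of 0.0134 to 0.0154 bases against 0.0156 to 0.0357 bases, which did not overlap either. At 60 bases, the length of Snord91a, the ranges overlapped (4127 to 7737 against 1593 to 4270 FPKM), as did the effective lengths. At 90 bases the ranges overlapped too (210 to 348 against 66.9 to 216 FPKM). At 77 bases, the length of Snord96a, they did not (603 to 1028 against 194 to 563 FPKM). The median value of 1 fragment was lower with age at each of these lengths. So were these rows in FPKM, and the part of that value in their differences was not tested. Fragments per 1000000 are not divided by effective length, so they are a different scale and not a corrected FPKM.

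Over the 12 C/D rows of 54 to 99 bases that were above 0 in every library, the median log2 difference with age was -0.85 in FPKM over all 22 libraries (12 of 12 below 0), -0.83 in FPKM over the 18 libraries and -0.14 in fragments per 1000000 over the same 18 (10 below 0, 2 above). Summed over the 59 C/D rows read, the fragments per 1000000 numbered 3.08 ± 0.48 (SD) in 4 AL mice at 5 months and 3.06 ± 0.50 in 5 AL mice at 15 months.

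In the fit of FPKM the log2 differences of the non-overlapping rows were -0.96 for Snord91a (SE 0.95, limma adjusted p = 0.496), -0.97 for Snord104 (SE 0.43, 0.111) and -0.92 for Snord96a (SE 0.40, 0.104). The exact permutation p was 0.00433, 0.00649 and 0.00433, where 0.00216 is the smallest that 5 against 6 mice allow. Rows chosen for not overlapping have values near that smallest p by the choice itself. Without the trend of variance on mean level in limma, all 3 were called, at adjusted p of 0.0127, 0.0387 and 0.0342, and the standard error of Snord91a was 0.26. The trend was fitted over all genes, and at the level of Snord91a it rests on few rows, most of them with zeros.

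Snord16a, in Rpl4, was 983 ± 207 (SD, n = 5) and 520 ± 213 FPKM (n = 6), a log2 difference of -1.0 (SE 0.42, limma adjusted p = 0.0907), and 3, 4, 6 and 6 fragments against 4, 4, 4, 4 and 7 (exact permutation p = 0.175). Among 16 named members read in fragments, 7 had an exact permutation p under 0.05 with age in FPKM over the 18 libraries. Most of these 7 were named because of their FPKM with age, so the list cannot weigh FPKM against fragments. In fragments per 1000000, 1 member had an exact permutation p under 0.05 (Snord99, with 2, 2, 4 and 4 fragments against 0, 1, 2, 2 and 3, p = 0.0476). Snora47 went the other way, with 0, 0, 9.49, 14.9 and 23.2 FPKM in AL mice at 5 months and from 17.5 through 26.5 to 48.9 at 15 months. The log2 difference of 3.82 (SE 1.48) rests on the 2 zeros and missed the threshold (limma adjusted p = 0.0721, exact permutation p = 0.00649).

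**Figure D3:**
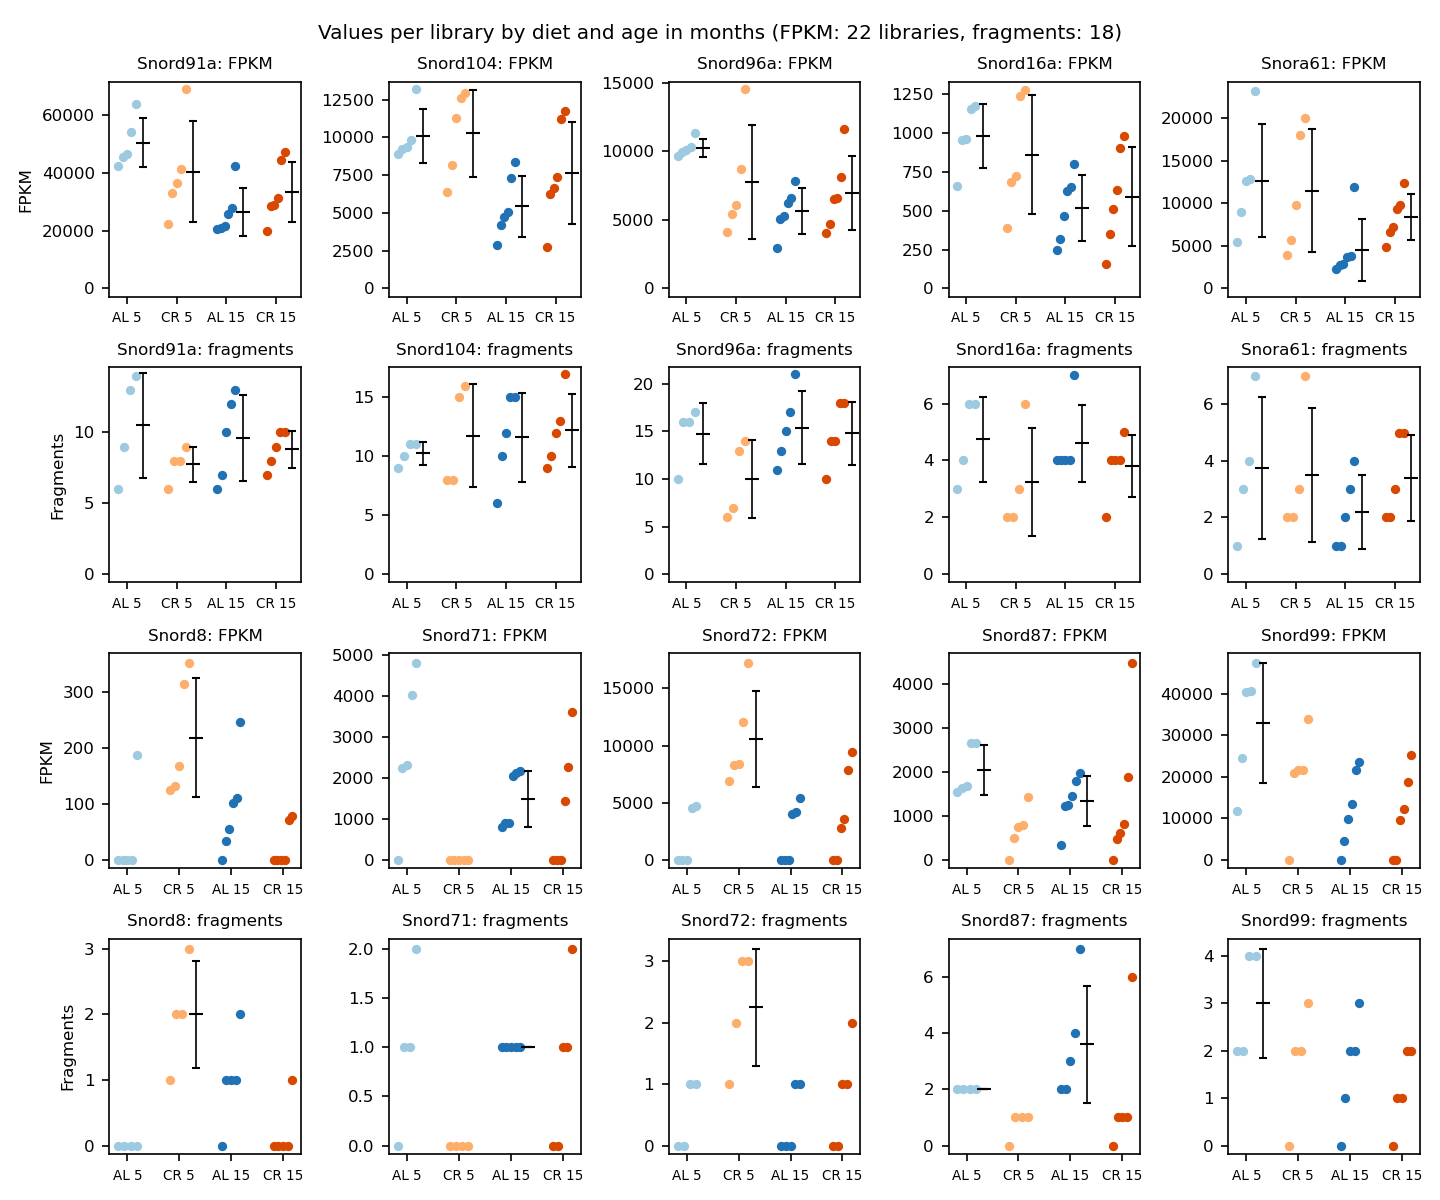
Values in each library (points) for 10 members, by diet and age in months, as FPKM over 22 libraries and, in the panel beneath, as fragments over 18 libraries. Bars give the mean and SD of groups without a 0. Snord91a, Snord104 and Snord96a do not overlap between AL 5 and AL 15 months in FPKM and do overlap in fragments, where Snord8, Snord71 and Snord72 lie between 0 and 3.

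The effect of CR at 15 months was examined next, with CR set against AL mice of that age. No member was called by limma, 0 of 94, nor without the 4 libraries numbered 0, and 0.742% of all genes were. At an unadjusted p under 0.05 there were 9 members (6 higher, 3 lower with CR), or 9.57% against 17.1% of all genes. No member had groups that did not overlap, where 0.984% of all genes tested did. The neocortex and subiculum score minus the CA1 score had a median of -0.42 in AL mice (-1.30 to 0.58). In CR mice of that age it was -1.26 (-2.75 to 0.14). Summed FPKM of the CA1 markers was 172 to 265 and 83.8 to 408, and no marker of either list was called. The part of these lists in the results with CR was not tested.

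Scarna13, a scaRNA in an intron of Snhg10, had the smallest unadjusted p. Its FPKM ran from 1.58 through a median of 2.58 to 4.27 in AL and from 3.59 through 4.14 to 5.40 in CR mice at 15 months. The lowest CR library was above 5 of the 6 AL libraries, and the log2 difference was 0.72 (SE 0.22, limma adjusted p = 0.117, exact permutation p = 0.0108). It is the longest member, at 275 bases, and also had one of the lower coefficients of variation, 25.7%.

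Snora69, in an intron of Rpl39, was at 0 in 4 of 6 CR mice at 15 months, and at 27.3 and 44.8 FPKM in the others. AL mice of that age had from 21.9 through 27.7 to 103 FPKM, none at 0. The log2 difference of -5.75 (SE 1.90) missed the threshold (limma adjusted p = 0.143, exact permutation p = 0.0303). Without the library of CR mouse 0 at 15 months it was called by limma, at -6.80 (adjusted p = 0.0465), and without all 4 libraries numbered 0 it was not, at -6.93 (limma adjusted p = 0.0947). Snora65 stood at 362 ± 83.1 FPKM in AL and 490 ± 96.8 FPKM in CR mice (SD, n = 6 each), a log2 difference of 0.45 (SE 0.19, limma adjusted p = 0.228, exact permutation p = 0.0390). Its sequence has 3 near-identical small RNA genes elsewhere, so its level may be shared among copies. Snora61, lower in FPKM with age, had from 4871 through 8269 to 12379 FPKM in CR mice at 15 months, a log2 difference from AL mice of 1.08 (SE 0.51, limma adjusted p = 0.280), and this comparison shares the AL mice at 15 months with that of age.

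**Figure D4:**
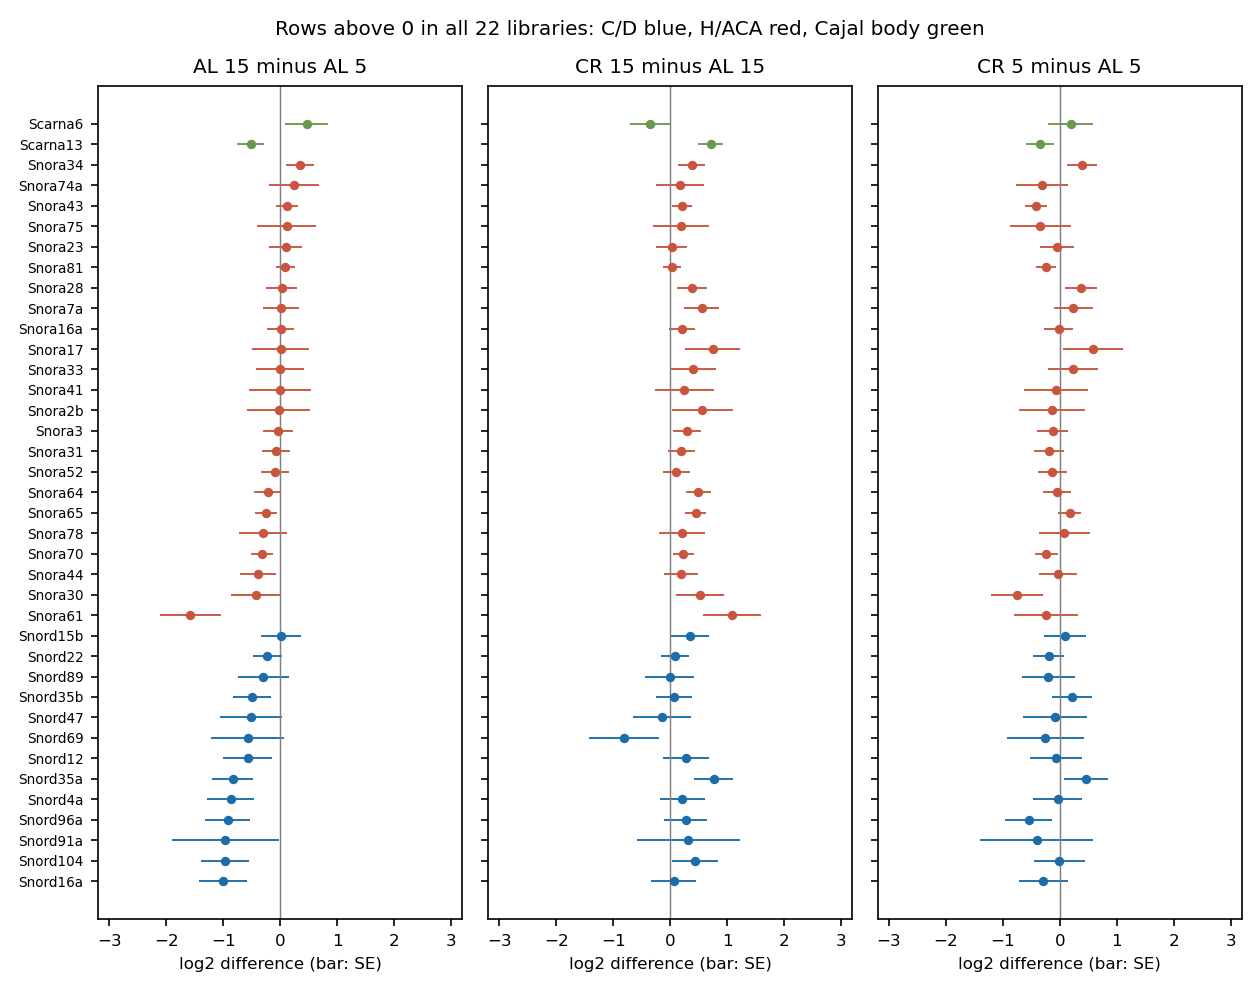
Difference in mean log2(FPKM + 0.1) with its SE for the 39 rows above 0 in every library but 1 C/D row, in 3 comparisons (AL 15 against AL 5 months, CR against AL at 15 months, CR against AL at 5 months), coloured by class. C/D rows lie mostly left of 0 in the first panel, and all 23 H/ACA rows lie right of 0 in the second, most of them by about 1 SE.

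All 23 H/ACA rows above 0 in every library had a higher mean of log2 values with CR at 15 months, by 0.03 to 1.08 with a median of 0.25 (0.29 without the libraries numbered 0), and 3 of them had an unadjusted p under 0.05. C/D rows of that kind were higher in 11 of 14, with a median of 0.24. Without 1 library the H/ACA median ran from 0.24 to 0.40 (highest without AL mouse 3), and the C/D median was 0.08 without CR mouse 4, 0.09 without AL mouse 2 and 0.11 without CR mouse 5. The median was 0.12 over all 94 members, where 54 were above 0 and 38 below, and -0.0012 over all genes. Here too the choice of rows above 0 in every library leaves out rows that fell to 0. Of all 32 H/ACA rows tested, 24 had a difference above 0 and 8 below, and of all 55 C/D rows 27 and 27. Divided by length, the 30 C/D rows of at most 70 bases had 11 above and 18 below. The 21 C/D rows of 71 to 100 bases had 13 and 8, and the 25 H/ACA rows of 101 to 140 bases 19 and 6. Rows of 1 library move together, as their deviations from the group mean correlated with a median r of 0.22 over 741 pairs of the 39 rows, so a count of rows on 1 side is not a count of independent observations. The value of 1 fragment at 90 bases had a median of 129 FPKM in AL and 187 FPKM in CR mice at 15 months, over ranges of 66.9 to 216 and 137 to 244. Steps beyond 100 bases, where most H/ACA rows lie, were not read, and the part of this quantity in their differences was not tested.

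At 5 months, CR mice were set against AL mice. No member was called by limma and no gene of the 16978 was (0% of genes called), and no member without the 4 libraries numbered 0. At an unadjusted p under 0.05 there were 5 members (3 higher, 2 lower with CR), or 5.32% against 4.65% of all genes. Groups did not overlap for 2 of 94 members, Snord72 and Snord87, where 1.36% of all genes did not.

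Zeros and single fragments decided these members. Snord71 was at 0 in all 5 CR mice at 5 months and had 0, 2239, 2306, 4016 and 4805 FPKM in AL mice, but it was also at 0 in 3 of 6 CR mice at 15 months and in none of the AL mice of that age (limma adjusted p = 0.824 at 5 months, exact permutation p = 0.0476). In fragments this is 0, 1, 1 and 2 in the 4 readable AL libraries at 5 months against 0 in the 4 of CR mice. At 15 months it is 1 in each of 5 AL libraries and 0, 0, 1, 1 and 2 in 5 of CR mice. Per 1000000 fragments the latter are means of 0.0205 and 0.0226 (exact permutation p = 0.921). Snord8 had 125, 132, 168, 315 and 352 FPKM in CR mice at 5 months, and 0 in 4 of 5 AL mice and 187 in the other (limma adjusted p = 0.824, exact permutation p = 0.0317). In fragments the difference is that between 1, 2, 2 and 3 in CR mice and 0 in all 4 readable AL libraries. Snord72, in an intron of Rpl37, had from 6860 to 17238 FPKM in CR mice at 5 months and 0, 0, 0, 4552 and 4703 in AL mice. Its exact permutation p of 0.00794 is the smallest that 5 against 5 mice allow, and its limma adjusted p was 1. It had 1, 2, 3 and 3 fragments in CR mice and 0, 0, 1 and 1 in AL mice, which did not overlap per 1000000 fragments (exact permutation p = 0.0286, the smallest that 4 against 4 mice allow). Snord87, in an intron of Snhg6, was lower with CR, at 0 to 1442 against 1553 to 2672 FPKM, with the same pair of p-values, and had 2 fragments in each of 4 AL libraries against 0, 1, 1 and 1 in CR mice. Snord72 and Snord87 were named because their FPKM did not overlap between these groups. That choice by itself puts their exact p in FPKM at its smallest. Scarna10 was above 0 only in 2 CR mice at 5 months, at 969 and 1912 FPKM.

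For Snord8 the order of the diets was the other way round at 15 months, though the interaction was not called. At 15 months it was above 0 in 5 of 6 AL mice (up to 247 FPKM) and at 0 in 4 of 6 CR mice, and the age by diet interaction was -13.75 on the log2 scale (SE 3.30, unadjusted p = 0.00046, limma adjusted p = 0.587). On the opposite strand of Snord8 lies the gene Gm26590, whose reads cannot be told apart from those of Snord8 without strand. The older AL mice had 0, 1, 1, 1 and 2 fragments of Snord8 and the older CR mice 0, 0, 0, 0 and 1. No member was called for the interaction, nor any other gene (limma, 0% of genes), and 5 members against 7.66% of all genes had an unadjusted p under 0.05.

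Host genes were described beside their snoRNAs. A host was annotated for 112 members, and 78 host rows of the matrix hold 105 of them. Among these hosts 23 encode ribosomal proteins and hold 32 members, and 10 members lie in Gas5 or Snhg rows. In GENCODE 59 members lie within introns only and 53 overlap an exon of a host transcript, and the reads of the latter cannot be separated from those of the host.

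Most snoRNA rows that had any value above 0 stood above their hosts in FPKM, a scale per length. Of the 105 members with a host row, 86 were above 0 in at least 1 library. The others, at 0 throughout and so below their hosts, are left out of what follows. Among the 86, the member was higher than the host in 65 and more than 10 times higher in 37. The median ratio was 20.6 for C/D (52 pairs) and 1.95 for H/ACA members (28 pairs). Snord91a, on 6 to 14 fragments a library, stood 3928 times above Tsr1 and Snora61 269 times above Snhg12, whereas Snord15a, of 148 bases, had 0.0087 of the level of its host Rps3. Snord47, in the growth arrest RNA Gas5, had a mean of 11411 FPKM against 14.5 for Gas5. Levels of members and hosts were weakly related across genes, with a rank correlation of 0.22 (n = 86), and 0.38 for the 26 pairs whose member has 100 to 140 bases.

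**Figure D5:**
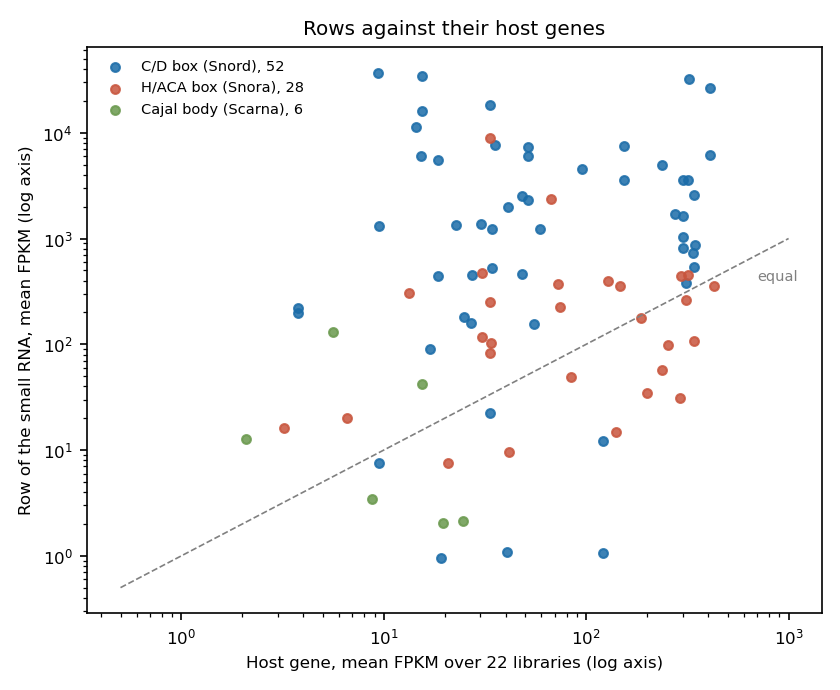
Mean FPKM over the 22 libraries of 86 snoRNA and scaRNA rows against that of their host genes, both on log axes, coloured by class. Points above the dashed line of equal level are 65 of the 86, and most C/D rows lie more than 10 times above it.

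Between mice of a group, member and host did not move together closely. For the 32 members above 0 in every library with a host row, deviations from group means correlated with the host's at a median r of 0.078, from -0.47 to 0.46 over the 22 libraries.

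Few hosts were called with age. In AL mice, 5 of 78 hosts (6.41%, against 20.6% of all genes) were lower at 15 months and none higher. These were Snhg8, Snhg6, Eef1b2 (a translation elongation factor subunit), Rplp2 (a ribosomal stalk protein) and Rabggtb (a subunit of Rab geranylgeranyl transferase). Without the 4 libraries numbered 0, 2 of them were called, Snhg8 and Eef1b2. Snhg6 went from 35.6 ± 4.67 (SD, n = 5) to 25.0 ± 4.50 FPKM (n = 6), a log2 difference of -0.51 (SE 0.17, limma adjusted p = 0.0406), and its member Snord87 differed by -0.75 (SE 2.32). Rplp2 differed by -0.32 (SE 0.10, limma adjusted p = 0.0304) and its member Snora52 by -0.09 (SE 0.25). Eef1b2 differed by -0.32 (SE 0.09, limma adjusted p = 0.0169) and Snora41 by -0.01 (SE 0.54). Snhg8 holds Snora24, which was at 0 throughout.

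With CR at 15 months, 1 of 78 hosts was called (1.28%, against 0.742% of all genes), Ccar1 (a regulator of the cell cycle and apoptosis), at 16.0 ± 1.13 FPKM in AL and 20.5 ± 2.54 in CR mice (SD, n = 6 each), a log2 difference of 0.35 (SE 0.07, limma adjusted p = 0.0342). The call was lost without any 1 of 7 of the 12 libraries compared, at limma adjusted p from 0.0528 to 0.0942. Its member Snord98 was at 0 in every library. At 5 months no host was called, and 4 of 78 had an unadjusted p under 0.05, as 4.65% of all genes did. The 23 ribosomal protein hosts all had log2 differences below 0 with age, by -0.37 to -0.06, and above 0 with CR at 15 months, by 0.09 to 0.24, of which Rplp2 with age was the only call. Their medians were -0.18 and 0.15, against -0.0018 and -0.0012 over all genes, and both comparisons share the AL mice at 15 months. Without CR mouse 2 at 15 months, which held the highest value of Rpl39 (494 FPKM, the next CR mouse 303), the median with CR was 0.03 and 2 of the 23 were below 0. The median with age was -0.27 without AL mouse 0 at 5 months.

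Genes of proteins that build and carry snoRNPs came next, together with some of the nucleolus. Of 27 genes listed for the C/D core, the H/ACA core, assembly, the Cajal body and the nucleolus, 26 were tested and 3 were called with age (11.5%, against 20.6% of all genes), the same 3 without the libraries numbered 0. With age, Polr1b (a subunit of RNA polymerase I) rose in AL mice from 4.44 ± 0.45 (SD, n = 5) to 6.51 ± 0.41 FPKM (n = 6), a log2 difference of 0.55 (SE 0.09, limma adjusted p = 0.000757). Dkc1, the pseudouridine synthase of the H/ACA core, fell by 0.24 on the log2 scale (SE 0.08, limma adjusted p = 0.0340), and Ruvbl1, an assembly ATPase, fell by 0.21 (SE 0.07, limma adjusted p = 0.0457). None of the 4 C/D core genes (Fbl, Nop56, Nop58 and Nhp2l1) was called, at differences from -0.17 to -0.10.

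With CR at 15 months, Polr1b (nucleolus) was the single call among the 26 (3.85%, against 0.742% of all genes). It was lower at 4.82 ± 0.74 FPKM (SD, n = 6) than in AL mice of that age (log2 difference -0.44, SE 0.09, limma adjusted p = 0.0342). The call was lost without any 1 of 9 of the 12 libraries compared, at limma adjusted p from 0.0512 to 0.0727. At 5 months none of the 26 was called, and 1 had an unadjusted p under 0.05, where 4.65% of all genes did. Of the 12 rows named Gas5 or Snhg, 4 were called with age (33.3%, against 20.6% of all genes). Snhg11 was higher, and Snhg5, Snhg6 and Snhg8 were lower. None of the 12 was called with CR at either age. With CR, 1 at 15 months and 2 at 5 months had an unadjusted p under 0.05, where 17.1% and 4.65% of all genes did. Gas5 differed by 0.01 with age (SE 0.14).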

How the data were processed

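CA1 RNA of 22 female mice in 4 groups (AL and CR at 5 and 15 months) was sequenced, 1 library a mouse. Per the submitters' processing notes and the study's methods, the authors demultiplexed with bcl2fastq, used TopHat to align to mm10, took out probable PCR duplicates by Picard and deposited FPKM from Cufflinks run with its bias and multi-read corrections. Fragments read here are therefore those left after duplicate removal, and the part of either correction in the values was not tested. The annotation release is not given in the sources used here. No value column was left out (0).

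Members, gene lists and tests were chosen with earlier results of these data known. log2(FPKM + 0.1) of the 16978 genes with a mean of 0.1 FPKM or above was fitted with limma 3.58.1 in R 4.3.3 (4 group means, mean-variance trend), with Benjamini-Hochberg adjusted p under 0.05 as the threshold, after a test on simulated data. Exact two-sided permutation tests compared single members. Named members are the 5 C/D, 5 H/ACA and 3 scaRNA rows of highest mean, the 3 of lowest p in each comparison, and the Snord116 rows. Snord72, Snord87, Snord104, Snord16a, Snord8 with age, Snord91a and Snord96a were added after their values were seen. For 1 C/D member that the rule names, values are not reported here, though counts and medians over members include it.

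The value of 1 fragment was read in each library from rows of equal RefSeq length, walking outward from 68 bases, and depth from olfactory receptor rows under an assumed mean fragment of 200 bases. Both steps, and the fits without the libraries numbered 0, were chosen after seeing the data. Fragments are whole numbers read from FPKM and no read counts were used, so no count model was run.

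Sequences and lengths come from GENCODE release M21 and RefSeq (GRCm38.p6), and near-identical copies from BLAST 2.17.0. Python 3.11.15 was used with scipy 1.17.1 for the permutation tests over the 18 libraries, numpy 2.4.6, matplotlib 3.10.9 and pandas 2.3.3. Deviations of 31 same-numbered pairs correlated at -0.139 to 0.163, and replicate numbers were not used as a pairing. The number 0 does mark the 4 libraries whose values were not stepped. Alternatives were other pseudocounts (0.01 and 1), filters, scalings, samples, a replicate block, a region score and leaving out each library. Replicates are separate animals.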

Additional observations from a re-analysis of the deposited data

Results flagged for a closer look

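In 6 of 108 groups of libraries (5.56%) 1 library stood apart from the rest by its gap over the group's range, and chance gives about 1 in 20. Snora61 reached 11866 FPKM in AL mouse 3 at 15 months, on 4 fragments, where the next library had 3760 FPKM. Snord104 was at 13179 FPKM in AL mouse 2 at 5 months, the next at 9838, on 9 fragments. Snord91a was at 42235 FPKM in AL mouse 4 at 15 months, the next at 27904, on 10 fragments. Snord8 was at 187 FPKM in AL mouse 0 at 5 months and at 0 in the 4 others of its group, and that library could not be read in fragments.

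Among values over all members, the share of the summed FPKM was 33.4% in CR mouse 4 at 15 months, the next at 28.3%. The median log2 level of the H/ACA rows above 0 in every library was 6.77 in AL mouse 4 at 5 months, below the next at 7.32.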

How the results depend on the processing

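The number of members called with age in AL mice (1, limma) depended on the fit. It was 0 with a pseudocount of 1, with all genes above 0, with quantile normalization, with libraries set to a common snoRNA median and with the region score, 2 with only the groups compared (Snord16a among them) and 4 without the variance trend (Snora61, Snord91a, Snord96a and Snord104). Without the 4 libraries numbered 0 it was 2, Scarna13 at -0.79 (limma adjusted p = 0.0255) and Snord8 at 7.53 (limma adjusted p = 0.020). Without 1 library it ran from 0 (without AL 5 months replicate 1, 3 or 4, or AL 15 months replicate 0, 1 or 4) to 3 (without AL 5 months replicate 0). With CR at 15 months it ran from 0 to 1 (without CR 15 months replicate 0), and with CR at 5 months and for the interaction it was 0 throughout. Read in fragments per 1000000, the median age difference of 12 C/D rows moved from -0.85 to -0.14.

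Replicate numbers were not used as a pairing in the main fit. With a replicate block the calls with age were 4 members (Snora47, Snord104 and Snord8 among them), 9 hosts and 6 snoRNP and nucleolus genes. Host calls with age (5) became 10 under a common median, 12 with only the groups compared, 2 without the libraries numbered 0, and 0 under the common snoRNA median and the region score, and ran from 1 (without AL 15 months replicate 1) to 11 (without CR 15 months replicate 2). The snoRNP and nucleolus calls with age (3) became 5 under a common median and 0 under the common snoRNA median and the region score. Without 1 library they ran from 1 to 3. With CR at 15 months the single host call and the single nucleolus call (Polr1b) became 0 under the common snoRNA median. The same held with only the groups compared and with the region score, and for the Polr1b call also under quantile normalization. Without 1 library the calls among hosts ran from 0 to 2, and those among snoRNP and nucleolus genes from 0 to 1.

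The median of H/ACA rows above 0 in every library with CR at 15 months went from 0.25 to 0.68 under the common snoRNA median. The summed share without the 5 highest members was 18.1%, 16.3%, 15.3% and 15.9%. The causes were not tested, and no named difference that was called changed its direction.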
